A study of Oryza sativa Indica Group with 8 samples.

Results

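The auxin response genes of rice were followed here as 4 named families: the Aux/IAA genes (IAA), the auxin response factor genes (ARF), the GH3 genes and the SAUR genes. A gene belonged to a family when its symbol or a synonym, with any Os prefix dropped, was IAA, ARF, GH3 or SAUR followed by a number. The rule gave 61 genes, and 53 of them had at least 1 probe set of their own on the array, out of 17905 genes measured. These were 26 of 28 IAA genes, 17 of 23 ARF genes, 9 of 9 GH3 genes and 1 SAUR gene, SAUR39. IAA11, IAA29, ARF5, ARF6, ARF8, ARF19, ARF21 and ARF25 had no probe set of their own and were not measured. The 53 genes held 66 probe sets, and 43 genes had a single one. Of the 53 genes, 8 carried a second number of the same family among their synonyms, for example ARF1 (LOC4327785), which is also listed as ARF16. A number claimed by more than 1 gene was assigned by elimination, first to the gene with no other number.

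Auxin acts through receptor proteins that, once auxin is bound, mark Aux/IAA proteins for destruction. Aux/IAA proteins hold back the ARF proteins, transcription factors that bind auxin response elements in promoters. Many IAA, GH3 and SAUR genes are themselves turned on early by auxin. GH3 enzymes join hormones such as auxin or jasmonic acid to amino acids, and SAUR proteins are small auxin-inducible proteins. In roots this system is known for its part in tip growth, lateral root initiation and crown root formation.

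Signals came from roots of 2 indica rices. IR20 is described as a semi-dwarf, high-yielding type with shallow roots that is susceptible to drought, and Nootripathu as a low-yielding, deep-rooted landrace that tolerates it. Plants stood in a greenhouse in pipes 1 m long and 15 cm wide. Watered plants were the controls, and from day 40 after sowing the stressed plants received no water until leaf rolling and drying showed. The 4 groups (IR20 control, IR20 stress, Nootripathu control, Nootripathu stress) had 2 arrays each, named in the labels as biological replicates with no word on pooling. Control roots were washed and stressed roots were tapped clean, so washing and watering cannot be told apart. The labels give no soil water content and no day of harvest, so the degree of stress in each cultivar at harvest is unknown here.

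All values are log2 RMA signals, which compare a probe set between arrays but not with another probe set. Differences are given with their standard error (SE), n = 2 arrays per group, and a gene passed at a limma adjusted p under 0.05 over all 57194 probe sets tested. The SE rests on 1 spread shared by the 4 groups, and p-values measure only the spread between these samples. In whole roots, fewer cells of a type and less RNA per cell cannot be told apart. A reporter level, the 95th percentile of 64 reporter probe sets on each array, lay between 4.98 and 5.43. Of the 53 genes, 42 were above it on all 8 arrays, 7 on some arrays and 4 (IAA14, IAA16, GH3.1 and GH3.11) on none.

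The 8 arrays had medians between 5.29 and 5.35. IR20 stress replicate 2 stood apart, where the 3′ probe sets of the poly-A spike-ins exceeded the 5′ ones by 5.32 against 2.08 to 2.58 on the other 7 arrays. Of 6 root marker genes, all 6 fell in IR20 and 5 in Nootripathu, with mean signals of 10.50 to 10.52, 6.40 to 6.41, 9.79 to 9.81 and 7.60 to 7.72 on the arrays of the 4 groups in the order above. One of them, the silicon channel gene LSI1, fell from a mean of 14.53 to 13.74 in IR20 and from 14.50 to 13.46 in Nootripathu. Larger falls in IR20 came from LSI2 (13.6 to 6.6), NRAMP5 (12.3 to 5.8) and AMT1-2 (10.5 to 3.5). PHT1-6, counted among the falls in IR20, lay under the reporter level on every array. Of 5 photosynthetic genes 0 passed in IR20 and 2 fell in Nootripathu. RBCS1 lay at 2.98 to 3.23, RCABP89 at 4.92 to 5.74 and PETC at 4.89 to 7.48. RBCS (6.98 to 7.62) and CAB2R (5.62 to 6.97) were above the reporter level on all 8 arrays. Of 15 markers of dividing cells 13 fell and 2 rose in IR20, whereas 7 rose and 3 fell in Nootripathu. Their mean signal was 8.25 to 8.31 in IR20 controls, 5.46 to 5.91 in stressed IR20, 6.60 to 6.65 in Nootripathu controls and 6.82 to 6.96 in stressed Nootripathu. Of all genes 32.3% fell and 28.9% rose in IR20, and 23.2% fell and 31.1% rose in Nootripathu. The part of all these marker genes in the results below was not tested. Relative to the 3′ spike-in probe sets, the median of all genes was 0.61 lower under stress in IR20 and 0.82 lower in Nootripathu, against 0.00 and 0.08 on the RMA scale. These probe sets averaged 10.15 and 10.23 in IR20 controls and 11.09 and 10.51 in stressed IR20. In Nootripathu they averaged 9.96 and 10.01 in controls and 11.09 and 10.67 under stress. The stressed replicates thus differed from each other, and the size of the shift is imprecise. Counts are therefore given on both scales, since a rise on the RMA scale is a rise relative to the bulk of the transcripts.

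The first comparison asked what water shortage changed in the Aux/IAA genes, the repressors of the pathway. In IR20, 13 of 26 IAA genes fell while 3 rose, and 8 of the falls were at least 2-fold. Of all 17905 genes 32.3% fell and 28.9% rose in this comparison, 61.3% in all, and 16.9% fell and 10.8% rose by at least 2-fold. The share of IAA genes that passed was thus close to that of all genes, while the median IAA difference was −0.47 against 0.00 for all genes. In Nootripathu, 10 IAA genes fell and 6 rose (median −0.06 against 0.08), while 23.2% of all genes fell and 31.1% rose, 54.4% in all. At least 2-fold, 5 IAA genes fell and 3 rose in Nootripathu, where 11.5% of all genes fell and 10.2% rose by that much. Scaled to the spike-ins, 16 IAA genes fell and 0 rose in IR20 (all genes: 40.9% and 5.77%), and 18 fell and 1 rose in Nootripathu (61.3% and 4.22%). In both cultivars 9 IAA genes fell (IAA2, IAA5, IAA6, IAA7, IAA12, IAA14, IAA23, IAA30 and IAA31), 2 rose (IAA15 and IAA25) and 0 passed in opposite directions. Both Nootripathu groups lay under the reporter level in IAA7 and IAA14. The share of all genes with the same call in both cultivars was not counted, so these counts have no background. The rises of IAA15 and IAA25 in IR20, and that of IAA15 in Nootripathu, turned to −0.17, −0.022 and −0.19 on the spike-in scale.

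IAA31 (LOC4352722) read 10.71 and 10.66 in IR20 controls, 5.92 and 6.11 in stressed IR20, 8.63 and 8.68 in Nootripathu controls and 6.62 and 6.77 in stressed Nootripathu. It fell by 4.67 ± 0.11 in IR20, 25.5-fold (adjusted p = 1.21e-07), and by 1.96 ± 0.11 in Nootripathu, 3.9-fold (6.06e-06). The 4 groups did not overlap: watered IR20 was highest and stressed IR20 lowest. A second, dim probe set of IAA31, at or below 4.74 on every array, did not pass in either cultivar. Its neighbour on the chromosome with 0 genes between them, IAA30 (LOC4352721), gave the same order of groups. It read 11.54 and 11.49 in IR20 controls, 7.76 and 8.18 in stressed IR20, 10.15 and 10.26 in Nootripathu controls and 8.90 and 9.02 in stressed Nootripathu. IAA30 fell by 3.54 ± 0.14 (adjusted p = 8.61e-07) and by 1.24 ± 0.14 (0.000296).

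IAA12 (LOC4333512) went from 9.80 and 9.83 to 5.28 and 5.77 in IR20, and from 8.04 and 7.89 to 7.02 and 7.32 in Nootripathu. One of the stressed IR20 arrays, at 5.28, lay under its reporter level of 5.43. IAA12 fell by 4.29 ± 0.17 in IR20, 19.6-fold as measured, and by 0.79 ± 0.17 in Nootripathu, with stressed IR20 far below the other 3 groups. The call in Nootripathu (adjusted p = 0.00876) was lost without Nootripathu control replicate 1 (−0.72, adjusted p = 0.0621) or stress replicate 1 (−0.64, adjusted p = 0.0673). IAA13 (LOC4334069) is a repressor whose stabilised form is known to block lateral root initiation in rice. Its signals were 12.17 and 12.03 in IR20 controls, 9.20 and 9.41 in stressed IR20, 10.58 and 10.45 in Nootripathu controls and 10.33 and 10.38 in stressed Nootripathu. It fell by 2.79 ± 0.12 in IR20 (adjusted p = 8.94e-07), and in Nootripathu the difference of −0.16 did not pass. IAA7 (LOC4328796) read 6.28 and 6.41 in IR20 controls and 3.08 to 3.98 on the other 6 arrays, all 6 under the reporter level. Its fall in IR20 is therefore best given as at least 2.04-fold (measured difference −3.25 ± 0.10, adjusted p = 2.62e-07), and in Nootripathu both groups were under that level.

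**Figure D1:**
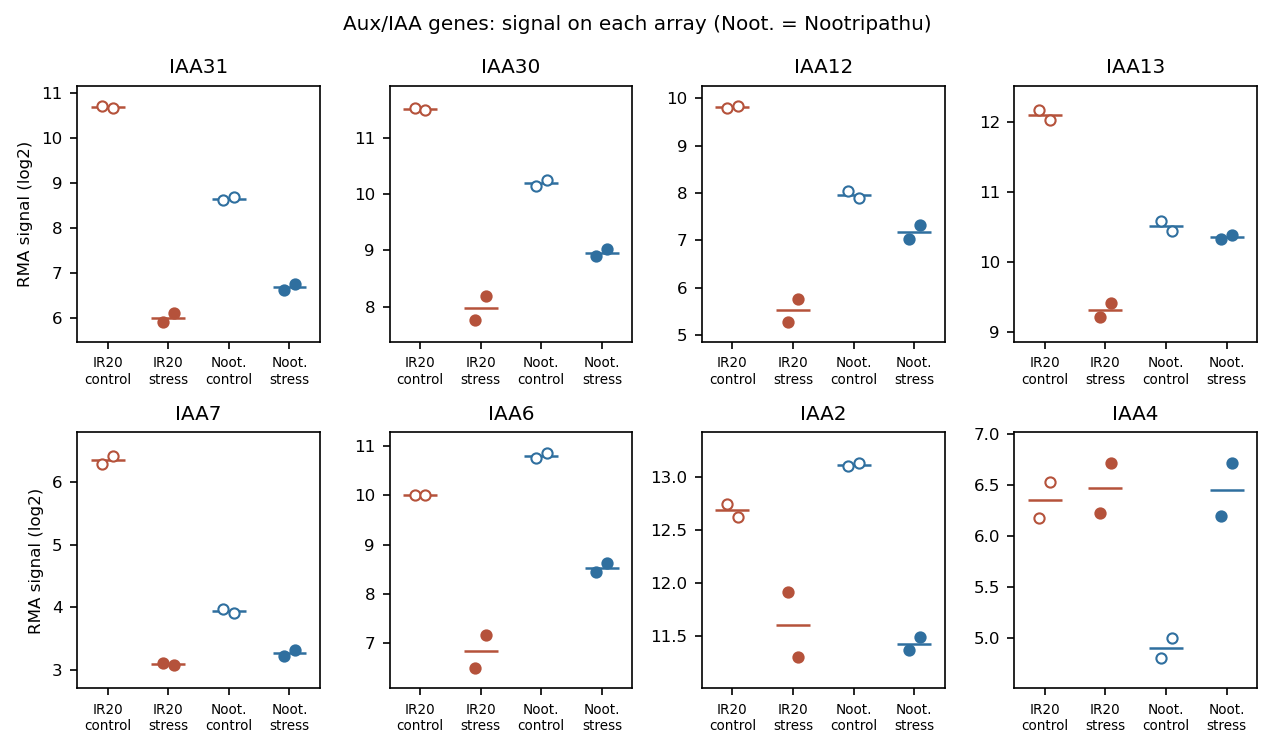
RMA signal (log2) of 8 Aux/IAA genes on each of the 8 arrays. Open points are watered and filled points stressed roots, red IR20 and blue Nootripathu (Noot.), and short lines are group means of 2 arrays; each panel has its own axis, which does not start at 0. In IAA31, IAA30, IAA12 and IAA13 watered IR20 is highest and stressed IR20 lowest, while in IAA4 the low pair is watered Nootripathu.

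IAA6 (LOC4326541), which has been linked to drought tolerance in rice when overexpressed, fell in both cultivars. It went from 10.00 and 10.01 to 6.51 and 7.17 in IR20, and from 10.76 and 10.86 to 8.44 and 8.63 in Nootripathu. It fell by 3.17 ± 0.20 (adjusted p = 7.01e-06) and by 2.27 ± 0.20 (5.93e-05), and no control array overlapped a stressed one. IAA2 (LOC4326775) fell from 12.75 and 12.63 to 11.91 and 11.30 in IR20 and from 13.10 and 13.13 to 11.37 and 11.49 in Nootripathu, by 1.08 ± 0.18 and 1.69 ± 0.18. Falls in both cultivars also came from IAA5 (1.11 ± 0.11 and 0.97 ± 0.11) and IAA23, known in rice for maintaining the quiescent centre of the root tip (0.85 ± 0.10 and 0.88 ± 0.10). IAA14 also passed in both, but its signals of 3.29 to 4.60 never reached the reporter level. In IR20, IAA3, IAA17 and IAA10 fell by 0.74 ± 0.09, 0.60 ± 0.09 and 0.43 ± 0.11, the last losing its call without IR20 control replicate 1 or 2 or stress replicate 1 (−0.45 to −0.33).

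The 2 probe sets of IAA3 (LOC4325890), a repressor whose stabilised form reduces rice root formation, went opposite ways. The brighter one read 13.03 and 13.00 in IR20 controls, 12.26 and 12.29 in stressed IR20, 12.54 and 12.56 in Nootripathu controls and 12.71 and 12.62 in stressed Nootripathu. The dimmer one read 4.81 and 4.93, 5.90 and 6.31, 5.28 and 5.22, and 6.85 and 7.07 in the same groups. The dimmer set rose by 1.24 ± 0.15 in IR20 (adjusted p = 0.000324) and 1.71 ± 0.15 in Nootripathu (6.76e-05), where the brighter set moved by −0.74 and 0.12. The direction of IAA3 is thus uncertain, and the mean of both sets gave 0.25 in IR20.

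Among the rises, IAA25 (LOC4344471) gained 0.59 ± 0.13 in IR20 and 1.11 ± 0.13 in Nootripathu, and IAA15 (LOC4337971) 0.44 ± 0.10 and 0.71 ± 0.10. Without IR20 control replicate 1, IAA25 in IR20 was at 0.52 with an adjusted p of 0.0534. IAA4 (LOC4327919), whose overexpression dwarfs rice plants, read 4.81 and 5.00 in Nootripathu controls, under the reporter level, and 6.17 to 6.72 on the other 6 arrays. It rose in Nootripathu, at least 2.13-fold (1.55 ± 0.23, adjusted p = 0.00104), and in IR20 the difference was 0.12. IAA8 (LOC4330571) read 4.01 and 3.97 in Nootripathu controls and 5.19 and 5.49 in stressed Nootripathu, a rise of 1.35 ± 0.24 from under the reporter level to about that level, and 3.94 to 5.04 in IR20. Other probe sets of IAA4 and IAA8 did not pass in either cultivar. Small changes that passed in 1 cultivar were those of IAA24 in IR20 (0.38 ± 0.10) and of IAA18 (−0.53 ± 0.17), IAA19 (0.49 ± 0.13) and IAA21 (0.35 ± 0.11) in Nootripathu. All 4 lost the call without at least 1 array, and the 3 rises turned to −0.23, −0.41 and −0.54 on the spike-in scale. IAA1, IAA9, IAA16, IAA20 and IAA26 passed in neither.

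The next comparison took the auxin response factors, the DNA-binding side of the pathway. In IR20, 8 of 17 ARF genes rose and 4 fell (median 0.32), and in Nootripathu 10 rose and 1 fell (median 0.38). These shares stand against the 28.9% and 31.1% of all genes that rose. Scaled to the spike-ins the medians turned to −0.29 and −0.52, with 3 rises and 5 falls in IR20 and 2 rises and 7 falls in Nootripathu. Over all genes the medians on that scale were −0.61 and −0.82, with 40.9% and 61.3% falling and 5.77% and 4.22% rising. The sign of the ARF median thus depends on the scaling, while it lay above the median of all genes on both scales. In both cultivars 7 ARF genes rose on the RMA scale (ARF2, ARF3, ARF10, ARF14, ARF15, ARF16 and ARF24) and ARF13 fell, and here too the share of all genes was not counted.

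ARF16 (LOC9270361), of the class of ARF proteins that activate transcription and known in rice for a role in the response to phosphate starvation, had the largest rise among the ARF genes in both cultivars. It read 7.93 and 7.88 in IR20 controls, 9.68 and 9.84 in stressed IR20, 7.92 and 7.88 in Nootripathu controls and 10.37 and 10.34 in stressed Nootripathu. It rose by 1.85 ± 0.10 in IR20, 3.61-fold (adjusted p = 3.21e-06), and by 2.45 ± 0.10 in Nootripathu, 5.48-fold (1.38e-06). The watered groups shared 1 level, both stressed groups lay above them, and on the spike-in scale both rises still passed (1.25 and 1.56).

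ARF2 (LOC4325895), ARF3 (LOC4327014), ARF14 (LOC4339313) and ARF15 (LOC9268260) are relatives of the Arabidopsis gene ETTIN and known targets of trans-acting small RNAs. ARF2 and ARF15 have the synonyms ETTIN2 and ETTIN1 in the gene table. They are set together here after their values were seen. ARF2 went from 8.57 and 8.54 to 9.87 and 10.04 in IR20 and from 8.49 and 8.55 to 9.84 and 9.89 in Nootripathu. ARF15 went from 9.97 and 10.04 to 11.38 and 11.49, and from 10.50 and 10.41 to 11.72 and 11.78. ARF14 went from 7.83 and 8.04 to 9.18 and 9.22, and from 7.75 and 7.80 to 9.14 and 9.22. The rises of these 3 genes were close in the cultivars: 1.40 and 1.34 in ARF2, 1.43 and 1.30 in ARF15 and 1.26 and 1.40 in ARF14, each with an SE of 0.10 or 0.11. ARF3 rose by 0.71 ± 0.12 in IR20 (9.52 and 9.62 to 10.34 and 10.21) and by 1.66 ± 0.12 in Nootripathu (8.80 and 8.82 to 10.34 and 10.60). On the spike-in scale the rises of ARF2 and ARF15 in IR20 (0.79 and 0.82) and of ARF3 in Nootripathu (0.77) still passed.

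**Figure D2:**
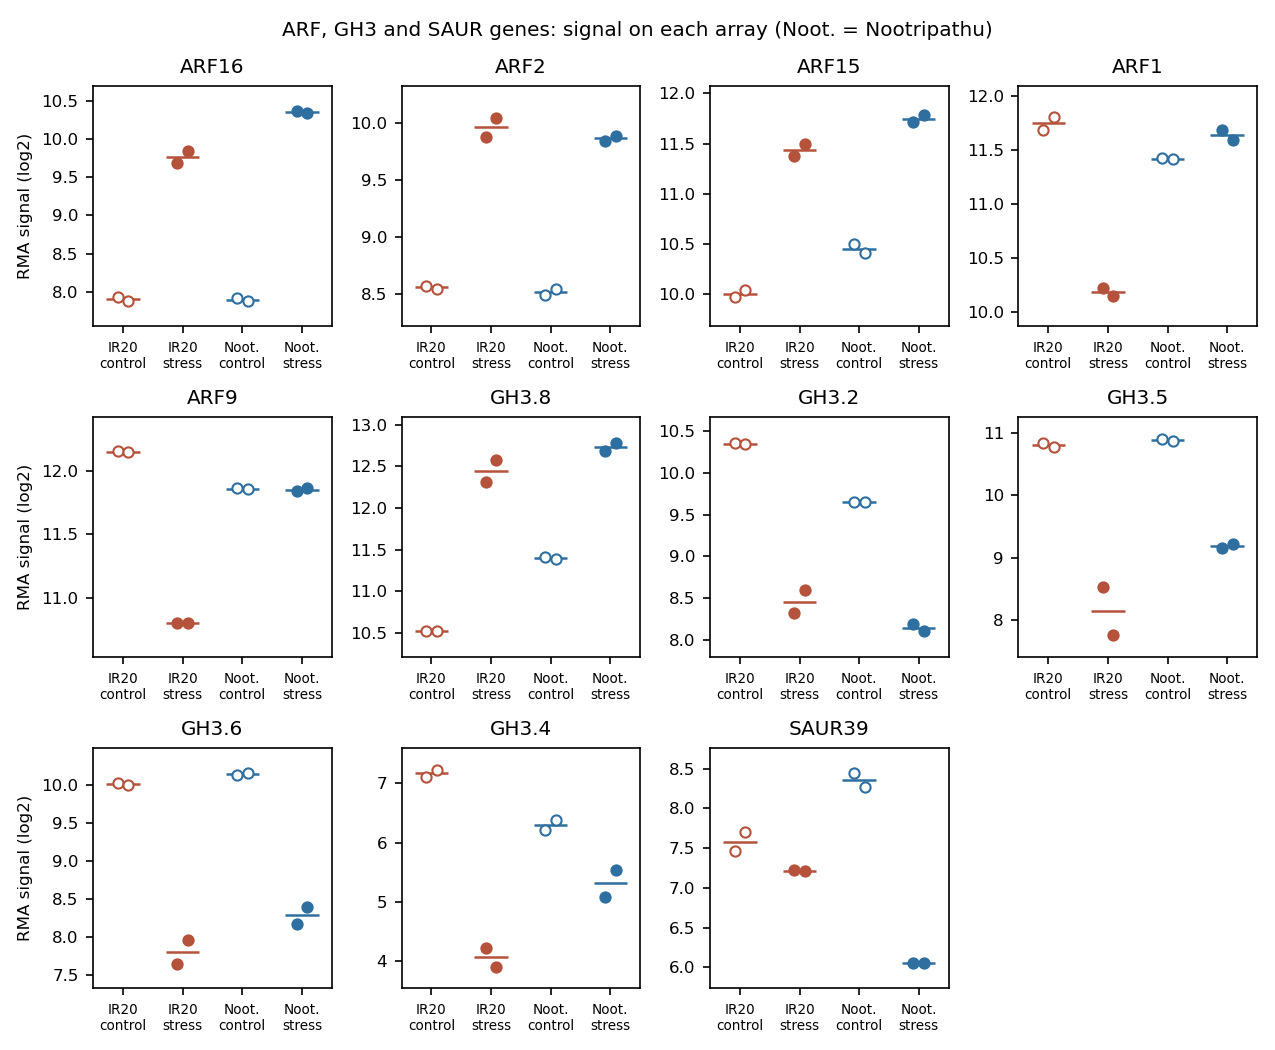
RMA signal (log2) of 5 ARF genes, 5 GH3 genes and SAUR39 on each of the 8 arrays. Open points are watered and filled points stressed roots, red IR20 and blue Nootripathu (Noot.), and short lines are group means of 2 arrays; each panel has its own axis, which does not start at 0. The panels of ARF1 and ARF9 show 1 low pair, stressed IR20, and that of GH3.8 shows stressed arrays above watered ones in both cultivars, on the RMA scale.

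ARF1, ARF7, ARF9 and ARF13 fell in IR20. ARF1 read 11.69 and 11.81 in IR20 controls, 10.22 and 10.15 in stressed IR20, 11.42 and 11.41 in Nootripathu controls and 11.68 and 11.59 in stressed Nootripathu. ARF9 (LOC4335934) read 12.15 on both IR20 controls, 10.80 on both stressed IR20 arrays and 11.84 to 11.87 on the 4 Nootripathu arrays. In both genes stressed IR20 stood alone below the other 3 groups. ARF1 fell by 1.57 ± 0.10 in IR20, 2.96-fold (adjusted p = 7.95e-06), and ARF9 by 1.35 ± 0.09, 2.55-fold (1.07e-05). In Nootripathu the differences were 0.22 and −0.01, with adjusted p above the threshold. ARF7 (LOC4329672) fell by 0.46 ± 0.11 in IR20, a call lost without IR20 control replicate 1 (−0.40, adjusted p = 0.0697).

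ARF10, ARF13, ARF18 and ARF22 belong to the ARF genes known as targets of a microRNA. ARF10 (LOC4336419) rose by 0.86 ± 0.15 in IR20 and 0.61 ± 0.15 in Nootripathu, and ARF22 (LOC4348918) by 0.86 ± 0.12 in Nootripathu, with 0.32 in IR20. The rise of ARF10 in Nootripathu lost its call without Nootripathu control replicate 1 or 2 or stress replicate 2 (adjusted p = 0.0664 to 0.0831) and turned to −0.29 on the spike-in scale, as ARF22 did to −0.032. ARF13 (LOC9269399) read 5.88 and 6.13 in IR20 controls and 5.05 and 5.07 in stressed IR20, under the reporter level, a fall of at least 1.61-fold. In Nootripathu it fell by 0.47 ± 0.11, a call lost without any 1 of the 4 Nootripathu arrays (adjusted p = 0.0556 to 0.0705). ARF17 in IR20 (0.34 ± 0.10) and ARF18 and ARF23 in Nootripathu (0.38 ± 0.10 and 0.36 ± 0.11) rose slightly, lost the call without several single arrays and turned to −0.27, −0.52 and −0.53 on the spike-in scale. A dimmer probe set of ARF23 was at −0.09 in Nootripathu, not past the threshold, and fell by 0.94 ± 0.26 in IR20 (adjusted p = 0.0207). ARF12, an activator known for rice root elongation, and ARF4 passed in neither cultivar, at −0.18 to 0.02.

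Of the 9 GH3 genes, 5 fell and 1 rose in IR20 and 4 fell and 1 rose in Nootripathu. Of all genes 32.3% fell and 28.9% rose in IR20, and 23.2% and 31.1% in Nootripathu. The GH3 medians were −0.54 and 0.12, against 0.00 and 0.08 for all genes. Scaled to the spike-ins they were −1.15 (7 falls, 1 rise) and −0.77 (6 falls, 0 rises), against −0.61 and −0.82, so the median in Nootripathu changed sign. On that scale 40.9% and 61.3% of all genes fell. GH3.2, GH3.4, GH3.5 and GH3.6 fell in both cultivars on both scales, and the share of all genes that did so was not counted.

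GH3.5 (LOC4339756), with the synonym JAR1, makes the active jasmonate conjugate rather than an auxin conjugate. It read 10.84 and 10.77 in IR20 controls, 8.52 and 7.75 in stressed IR20, 10.91 and 10.88 in Nootripathu controls and 9.16 and 9.21 in stressed Nootripathu. The watered groups were close and all stressed arrays lower. GH3.5 fell by 2.67 ± 0.21 (6.36-fold, adjusted p = 2.83e-05) and by 1.71 ± 0.21 (3.26-fold, 0.000451). GH3.6 (LOC4337780) gave a like picture, from 10.03 and 10.00 to 7.65 and 7.96 in IR20 and from 10.13 and 10.16 to 8.17 and 8.40 in Nootripathu. It fell by 2.21 ± 0.13 and by 1.86 ± 0.13. GH3.2 (LOC4326893), an enzyme that conjugates auxin, went from 10.36 and 10.35 to 8.32 and 8.60 in IR20 and from 9.66 on both controls to 8.18 and 8.10 in Nootripathu. GH3.2 fell by 1.90 ± 0.12 and by 1.51 ± 0.12.

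GH3.4 (LOC4339234) read 7.12 and 7.23 in IR20 controls, 4.23 and 3.91 in stressed IR20, 6.22 and 6.39 in Nootripathu controls and 5.08 and 5.54 in stressed Nootripathu. Stressed IR20 lay under the reporter level, so the fall in IR20 was at least 3.62-fold (measured difference −3.11 ± 0.17, adjusted p = 3.99e-06), and in Nootripathu it was 0.99 ± 0.17. GH3.8 (LOC4343785), an auxin-conjugating enzyme known in rice for a part in disease resistance, went the other way. It read 10.52 on both IR20 controls, 12.31 and 12.58 in stressed IR20, 11.41 and 11.39 in Nootripathu controls and 12.68 and 12.78 in stressed Nootripathu. It rose by 1.93 ± 0.12 in IR20, 3.8-fold (adjusted p = 5.77e-06), and by 1.33 ± 0.12 in Nootripathu, 2.51-fold (6.06e-05). Scaled to the spike-ins, the rise was 1.32 in IR20 and, no longer past the threshold, 0.44 in Nootripathu. So 2 enzymes known to conjugate auxin, GH3.2 and GH3.8, moved in opposite directions in the same roots on the RMA scale.

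GH3.9 (LOC4343704) read 7.59 and 7.64 in IR20 controls and 7.08 and 7.07 in stressed IR20, a fall of 0.54 ± 0.11, with 0.12 in Nootripathu. GH3.7 (LOC4341111) differed by −0.26 ± 0.16 in IR20 and 0.45 ± 0.16 in Nootripathu and passed in neither. Without IR20 stress replicate 2 the IR20 value of GH3.7 was −0.50 and passed (adjusted p = 0.0208), and without IR20 stress replicate 1 or 2 the Nootripathu value passed (0.45, adjusted p = 0.0144). GH3.1 (LOC4327043) and GH3.11 (LOC4344247) stayed under the reporter level on every array, at 3.59 to 4.72, and passed in neither.

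SAUR39 (LOC9271092) is known in rice as a negative regulator of auxin synthesis and transport. It read 7.46 and 7.71 in IR20 controls, 7.22 on both stressed IR20 arrays, 8.44 and 8.27 in Nootripathu controls and 6.05 and 6.06 in stressed Nootripathu. Nootripathu held both the highest and the lowest pair. The fall in Nootripathu was 2.30 ± 0.12, 4.93-fold (adjusted p = 3.8e-06). In IR20 it was 0.36 ± 0.12 (adjusted p = 0.0414), a call lost with the replicate number as a block (adjusted p = 0.0556) and without any 1 array other than IR20 control replicate 1 (−0.37 to −0.24, adjusted p up to 0.237).

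**Figure D3:**
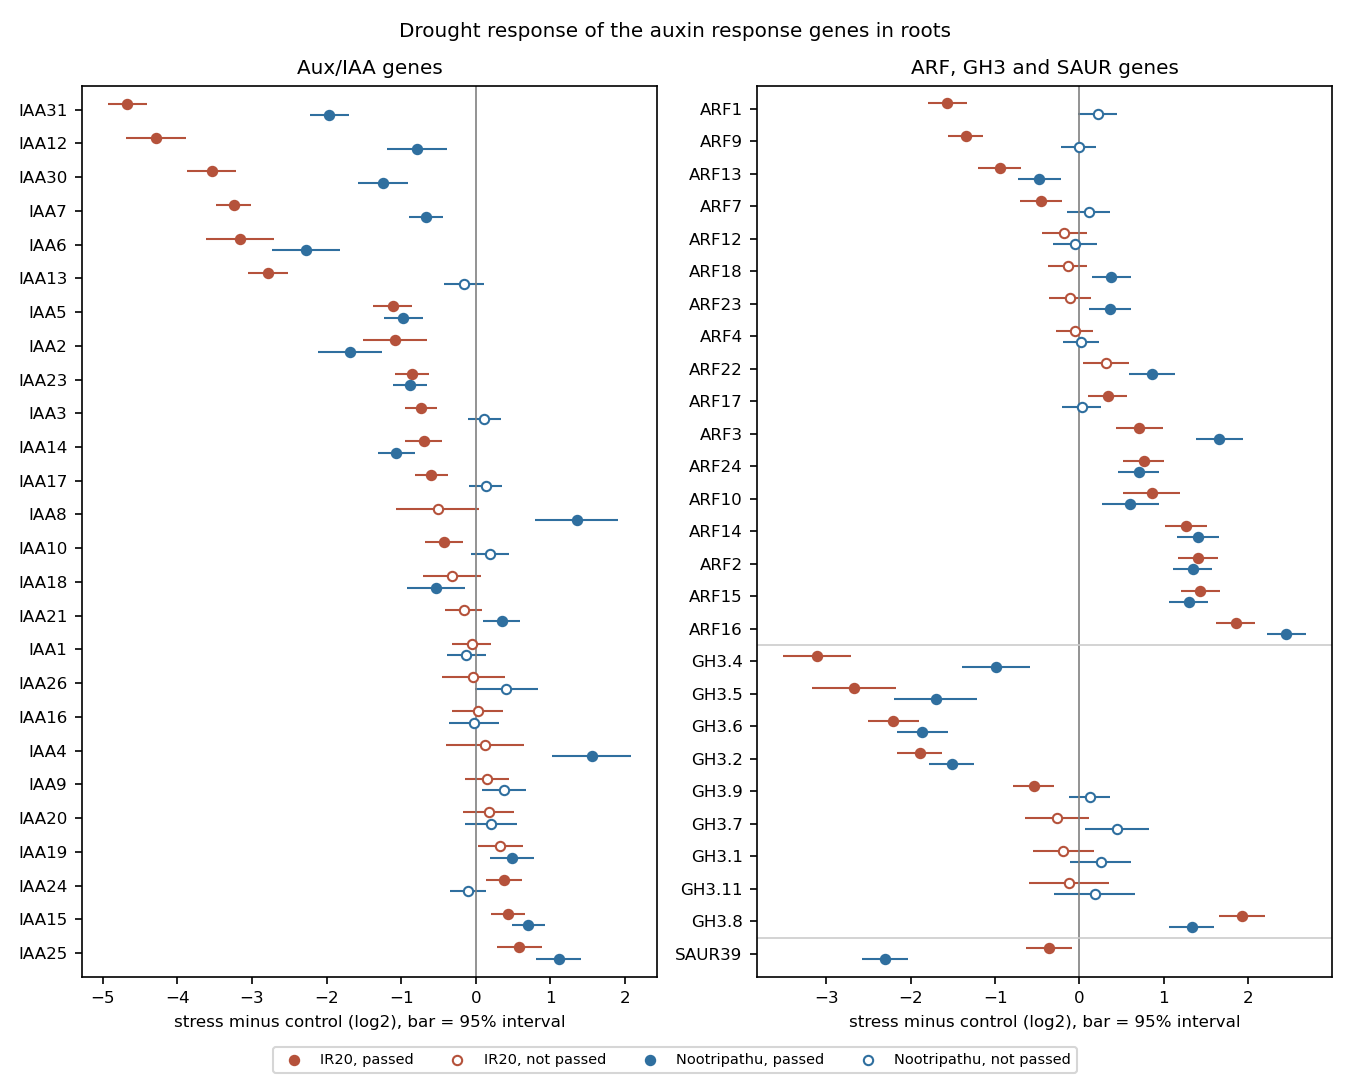
Difference between stressed and watered roots (log2, RMA scale) of the 53 measured genes in IR20 (red) and Nootripathu (blue). Points are differences of means of 2 arrays, bars their 95% intervals, filled points passed an adjusted p of 0.05 and open ones did not; genes are ordered by the IR20 value within each family. The IAA and GH3 panels extend furthest to the left in IR20, to −4.67 and −3.11, and most ARF genes lie right of 0, where 3 in IR20 and 2 in Nootripathu stayed past the threshold on the spike-in scale.

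The difference between the cultivars' drought effects was tested as an interaction, Nootripathu effect minus IR20 effect. Of the 53 genes 20 passed, and 18 of them had the higher value in Nootripathu. Among all genes 32.9% passed, 21.2% above 0 and 11.8% below, and the median was 0.44 in the families and 0.08 over all genes. The passes were 10 of 26 IAA genes and 6 of 17 ARF genes, all above 0, 2 GH3 genes above and 1 below 0, and SAUR39 below 0. On the spike-in scale 8 were above and 1 below 0: IAA7, IAA8, IAA12, IAA13, IAA30, IAA31, ARF1, GH3.4 and, below, SAUR39. Of all 17905 genes, 1019 passed above and 786 below 0 on that scale. Without IR20 stress replicate 2 the median over all genes was 0.14. More IAA, ARF and GH3 genes then passed above 0, as did more of all genes.

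The largest of these differences in the families was that of IAA12, at 3.50 ± 0.25 (adjusted p = 8.59e-05). IAA31 followed at 2.71 ± 0.16, IAA13 at 2.63 ± 0.16, IAA7 at 2.58 ± 0.14 and IAA30 at 2.30 ± 0.20, each a larger fall in IR20. The sizes are not measured well for IAA7, IAA8, IAA4 and GH3.4, each with at least 1 group under the reporter level, and IAA12 had 1 such array. GH3.4 differed by 2.11 ± 0.25, ARF1 by 1.78 ± 0.14 and ARF9 by 1.34 ± 0.13 in the same direction. IAA8 (1.86 ± 0.34), IAA4 (1.43 ± 0.32) and ARF3 (0.95 ± 0.17) differed with the larger rise in Nootripathu. IAA3, IAA17, GH3.9, IAA10, ARF16, ARF7 and ARF18 passed with differences between 0.52 and 0.85. GH3.8 (−0.60 ± 0.16) rose less in Nootripathu and SAUR39 (−1.94 ± 0.17) fell more.

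Of the 20 genes, 13 passed without each of the 8 arrays in turn. ARF16, IAA10 and GH3.8 lost the call without any 1 of the 6 arrays other than stressed IR20 (adjusted p = 0.0607 to 0.0876, 0.0573 to 0.107 and 0.0781 to 0.118). ARF7 and ARF18 lost it without any 1 array other than IR20 stress replicate 2, with values of 0.49 to 0.63 and 0.45 to 0.55. GH3.9 lost it without IR20 control replicate 2, Nootripathu control replicate 2 or Nootripathu stress replicate 2 (0.59 to 0.64). IAA4 lost it without IR20 control replicate 2, Nootripathu control replicate 1 or Nootripathu stress replicate 2 (1.17 to 1.34). GH3.5, at 0.96 ± 0.30, did not pass (adjusted p = 0.0615) but did without IR20 stress replicate 1 (1.35) or 2 (0.58). The markers of dividing cells moved with the interaction, with 14 of 15 past the threshold above 0, and 8 of them were under the reporter level in stressed IR20.

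The cultivars were then compared at equal watering. In watered roots, 10 IAA genes were lower and 3 higher in Nootripathu than in IR20, where 22.8% of all genes were lower and 12.6% higher, 35.4% in all. Of the ARF genes 3 were lower and 2 higher, of the GH3 genes 3 lower and 1 higher, and the medians of the 3 families were −0.31, −0.16 and −0.19 against −0.08 for all genes. On the spike-in scale 6 IAA genes were lower and 1 higher, 0 ARF genes passed in either direction, and 0 GH3 genes were lower and 1 higher. Of all 17905 genes, 1297 were lower and 1182 higher on that scale. The largest gaps were in IAA31 (−2.03 ± 0.11, 4.09-fold), IAA12 (−1.85 ± 0.17, 3.61-fold), IAA13 (−1.58 ± 0.12) and IAA30 (−1.31 ± 0.14). IAA7 and IAA4, under the reporter level in watered Nootripathu, were at least 1.98-fold and 1.99-fold lower there. The markers of dividing cells were also lower in watered Nootripathu, 13 of 15.

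Higher in watered Nootripathu were GH3.8 (0.88 ± 0.12), IAA6 (0.80 ± 0.20), SAUR39 (0.77 ± 0.12), IAA18 (0.61 ± 0.17), ARF12 (0.53 ± 0.11), IAA14 (0.52 ± 0.11) and ARF15 (0.45 ± 0.10). Lower were also ARF3 (−0.76 ± 0.12), ARF7 (−0.60 ± 0.11), ARF24 (−0.59 ± 0.10), GH3.4 (−0.87 ± 0.17), GH3.2 (−0.70 ± 0.12) and GH3.9 (−0.47 ± 0.11). Of the 23 genes that passed, 12 did so without each array in turn. ARF15, IAA3, IAA6 and IAA10 lost the call without any 1 of the 4 control arrays, and IAA18 without any 1 of these or of the stressed Nootripathu arrays. ARF12, GH3.9, IAA1, GH3.4, IAA14 and ARF7 lost it without 1 to 3 of the control arrays, with adjusted p of 0.054 to 0.165 there.

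On the spike-in scale only the balance of the IAA genes was reversed in stressed roots. On the RMA scale it was reversed in all 3 families. Of the IAA genes 8 were higher and 2 lower in Nootripathu than in IR20, of the ARF genes 5 higher and 1 lower, and of the GH3 genes 3 higher and 0 lower. Among all genes 18.1% were higher and 16.7% lower, 34.8% in all, and the medians of the 3 families were 0.18, 0.27 and 0.30 against −0.01. The largest were IAA6 (1.70 ± 0.20, 3.24-fold), IAA12 (1.65 ± 0.17, 3.13-fold), ARF1 (1.45 ± 0.10, 2.74-fold), GH3.5 (1.05 ± 0.21), ARF9 (1.05 ± 0.09), IAA13 (1.05 ± 0.12) and IAA30 (0.99 ± 0.14). GH3.4, IAA8 and ARF13 were higher by 1.25 ± 0.17, 1.07 ± 0.24 and 0.56 ± 0.11 as measured, but stressed IR20 was under the reporter level in all 3. Set to that level, IAA8 was at least 1.02-fold and ARF13 at least 1.23-fold higher, and GH3.4 had no bound. ARF12 (0.65 ± 0.11) and ARF16 (0.59 ± 0.10) were also higher. SAUR39 (−1.16 ± 0.12), ARF24 (−0.65 ± 0.11), IAA24 (−0.63 ± 0.10) and IAA1 (−0.53 ± 0.11) were lower. Scaled to the spike-ins, 4 IAA, 2 ARF and 2 GH3 genes were higher and SAUR39 was lower, where 1154 of all 17905 genes were higher and 931 lower. Of the markers of dividing cells 10 were higher and 1 lower in stressed Nootripathu. Of the 20 genes that passed, 14 did so without each array in turn. ARF13, GH3.5, IAA1 and IAA3 lost the call without Nootripathu stress replicate 1 or 2, IAA8 without IR20 stress replicate 1 or Nootripathu stress replicate 2, and GH3.6 (0.48 ± 0.13) without any array other than IR20 stress replicate 2.

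Among the 53 genes, 6 were lower in Nootripathu when watered and higher there when stressed: IAA3, IAA12, IAA13, IAA30, IAA31 and GH3.4. The share of all genes with this pair of calls was not counted. For GH3.4 stressed IR20 lay under the reporter level, so its stressed gap has no bound. For IAA3 this holds for the brighter probe set, whose watered call was lost without any 1 of the 4 control arrays, and the dimmer set was at 0.38 (not passed) in watered roots. SAUR39 was the only gene of the 53 with the opposite pair of calls. The watered and stressed comparisons share no arrays, and the stressed gap minus the watered gap is the interaction value already given. Higher in Nootripathu under both conditions were IAA6 and ARF12, and lower under both were IAA1 and ARF24.

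**Figure D4:**
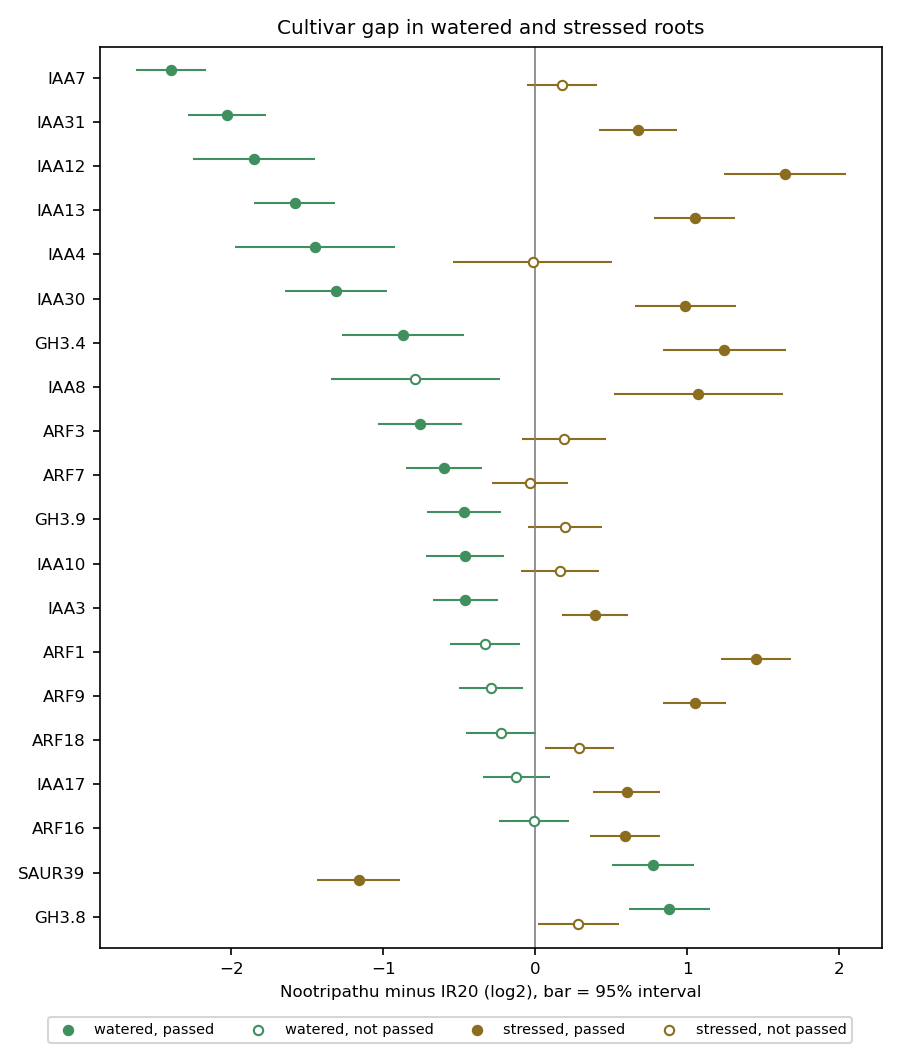
Difference between the cultivars, Nootripathu minus IR20 (log2, RMA scale), in watered (green) and stressed roots (brown), for the 20 genes past the threshold in the interaction. Points are differences of means of 2 arrays, bars their 95% intervals, filled points passed an adjusted p of 0.05 and open ones did not. The green points lie left of 0 except those of GH3.8 and SAUR39. Of the ones left of 0, that of IAA8 and those below IAA3 are open. SAUR39 has its green point right and its brown point left of 0.

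Other genes of the auxin pathway were taken by name: 19 were measured, for synthesis, transport, corepressors, conjugate hydrolysis and oxidation, a kinase and a crown root regulator. In IR20, 11 fell and 2 rose (median −0.97), and in Nootripathu 11 fell and 1 rose (median −0.49). Of all genes 32.3% fell and 28.9% rose in IR20, and 23.2% and 31.1% in Nootripathu. Relative to the spike-ins 14 and 18 fell and 0 rose, where 40.9% and 61.3% of all genes fell. The interaction passed in 7 of the 19, 6 above and 1 below 0, against 32.9% of all genes.

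FIB (LOC4325198), an aminotransferase of auxin synthesis, read 9.63 and 9.98 in IR20 controls, 7.44 and 7.76 in stressed IR20 and 8.41 to 8.48 on the 4 Nootripathu arrays. It fell by 2.20 ± 0.15 in IR20, with 0.02 in Nootripathu and an interaction of 2.22 ± 0.21, so stressed IR20 lay lowest and watered IR20 highest as in IAA13. Of the 5 PIN genes, which encode auxin efflux carriers, 3 fell in each cultivar. PIN2 (LOC4341736), an efflux carrier of the root tip, read 6.87 and 6.69 in IR20 controls and 3.98 to 4.60 on the other 6 arrays, under the reporter level, an IR20 fall of at least 2.75-fold. PIN9 (LOC4327533) went from 7.17 and 7.25 to 4.86 and 4.57 in IR20, under that level, at least 3.72-fold, and differed by −0.16 in Nootripathu. PIN5A fell by 1.48 ± 0.15 in IR20, where its stressed arrays were under that level, and PIN10A by 0.73 ± 0.11 in Nootripathu. The falls of PIN2 and PIN5A in Nootripathu were between groups that both lay under the reporter level.

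Of the 8 genes for conjugate hydrolysis and oxidation, 4 fell and 2 rose in IR20 and 5 fell and 1 rose in Nootripathu. ILL6 (LOC4341907), named for its likeness to hydrolases that release auxin from amino acids, fell by 2.21 ± 0.09 in IR20 and by 2.19 ± 0.09 in Nootripathu. It went from 10.14 and 10.06 to 7.85 and 7.92 in IR20, and from 10.06 and 10.07 to 7.90 and 7.85 in Nootripathu. ILL3 (LOC4334707) read 10.30 and 10.11 in IR20 controls, 4.43 and 3.83 in stressed IR20, 5.16 and 5.45 in Nootripathu controls and 4.19 and 4.25 in stressed Nootripathu. Only the watered IR20 arrays lay well above the reporter level, and the IR20 fall was at least 29.6-fold. DAO (LOC4336150), an oxidase that inactivates auxin, rose by 0.92 ± 0.11 and 0.74 ± 0.11, and ILL5 by 0.72 ± 0.10 in IR20. These rises are on the RMA scale, and the spike-in scale lowers Nootripathu stress values by 0.89, more than the rise of DAO there, which it turns.

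WOX11 (LOC4344325), a regulator of crown root growth in rice, read 9.98 and 10.02 in IR20 controls, 6.20 and 6.82 in stressed IR20, 9.46 and 9.44 in Nootripathu controls and 6.26 and 6.43 in stressed Nootripathu. It fell by 3.49 ± 0.19 and 3.11 ± 0.19, close in the cultivars, with an interaction of 0.38 ± 0.26 that did not pass. The kinase gene PID (LOC4352785), whose product acts on PIN proteins, fell by 1.39 ± 0.14 and 0.88 ± 0.14. The corepressor gene TPR2 (LOC4327709), of the group whose products are recruited by Aux/IAA proteins, fell by 0.60 ± 0.10 in each cultivar. YUCCA1, of auxin synthesis, stayed under the reporter level and did not pass.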

How the data were processed

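Root RNA (2 ug of total RNA per array, extracted with Trizol, per the labels' protocols) was hybridised to an Affymetrix rice genome array. The deposited values are log2 RMA signals, for which the submitters' processing notes name RMA and Affymetrix Expression Console 3.0; the RMA settings are not given in the sources used here. The table held 57381 probe sets, and the tests omitted 123 control and 64 reporter probe sets. Arrays have no depth, and their number (2 per group, where 2 against 2 cannot pass an exact permutation test) limits the precision.

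Groups were taken from the labels and compared with limma 3.58.1 in R 4.3.3 on all 8 arrays: 1 mean per group, 4 residual and 3.88 prior degrees of freedom, a prior SD of 0.129, and Benjamini-Hochberg adjustment over 57194 probe sets. The fit was checked on simulated data with independent noise and changes in stressed IR20 alone, which cannot test shared array shifts or the interaction. The probe annotation gave 22436 probe sets of exactly 1 gene and 95 of several, and 34663 had none. Names came from RefSeq's gene table (assembly ASM3414082v1) through the gene ID, and a gene was read from its brightest probe set (mean of 8 arrays). In IAA17, IAA23 and GH3.11 that probe set may match other transcripts. Members and lists were chosen with earlier results of these data known. Named were, per family and comparison, the up to 4 largest rises and falls past the threshold without overlap, every GH3 gene, every gene past the threshold in the interaction and every gene with opposed probe sets, and up to 2 rises and falls per step of the other pathway genes. A part of the rule that ranked genes by signal was not applied, since signals of different probe sets have no common scale. LAX1 and ASP1 of the named lists matched other proteins and were left out. Fold bounds set signals under the reporter level to that level and were added after the data were seen. Alternatives were the replicate block, only the arrays compared, a filter on the 40% dimmest probe sets, median-centring, spike-in scaling (12 probe sets), trended and robust priors, array weights, no cross-matching probe sets, the mean of a gene's probe sets, a minimum change of 2-fold, and each array omitted once.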

Additional observations from a re-analysis of the deposited data

Results flagged for a closer look

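The drought effect differed between the cultivars, by the interaction test, in 20 of the 53 genes (Nootripathu effect minus IR20 effect, log2, limma adjusted p under 0.05). Among IAA genes the differences were 3.50 in IAA12, 2.71 in IAA31, 2.63 in IAA13, 2.58 in IAA7, 2.30 in IAA30, 1.86 in IAA8, 1.43 in IAA4, 0.85 in IAA3, 0.73 in IAA17 and 0.62 in IAA10. Among ARF genes they were 1.78 in ARF1, 1.34 in ARF9, 0.95 in ARF3, 0.60 in ARF16, 0.57 in ARF7 and 0.52 in ARF18. Among GH3 genes they were 2.11 in GH3.4, 0.66 in GH3.9 and −0.60 in GH3.8, and SAUR39 stood at −1.94. The difference of IAA3 rests on its brighter probe set, since the dimmer one gave 0.48 (adjusted p = 0.165), and those of IAA31, IAA4 and IAA8 on 1 of their probe sets. With 2 arrays per group, no group was large enough to look for a single array apart from its group within a gene.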

How the results depend on the processing

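Among gene values that had passed, these changed direction. On the spike-in scale, IR20 rises turned to −0.27 in ARF17, −0.17 in IAA15, −0.022 in IAA25 and −0.23 in IAA24, and Nootripathu rises to −0.53 in ARF23, −0.19 in ARF24, −0.52 in ARF18, −0.032 in ARF22, −0.19 in IAA15, −0.54 in IAA21, −0.29 in ARF10 and −0.41 in IAA19. The construction of that scale lowers every stress value by 0.61 in IR20 and 0.89 in Nootripathu, and its p-values take the shared spike-in differences as independent. IAA3 in IR20 was 0.25 as the mean of its probe sets. Values that had not passed also changed sign: on the spike-in scale −0.71 in GH3.11, −0.77 in GH3.9, −0.45 in GH3.7 and −0.64 in GH3.1 in Nootripathu and 0.018 in GH3.7 and 0.19 in GH3.11 in watered roots, and GH3.1 and GH3.11 without single arrays (−0.072 to 0.14). On the spike-in scale the interaction counts were 6 IAA, 1 ARF and 1 GH3 gene (main 10, 6 and 3), those of watered roots 7, 0 and 1 (13, 5 and 4), and of stressed roots 4 IAA and 2 ARF genes (10 and 6). Fewer of all genes passed on that scale too, in each of these comparisons. With a 2-fold minimum, 8 IAA and 6 ARF genes passed in IR20 (16 and 12), 8 and 5 in Nootripathu (16 and 11), 2 ARF genes and 1 GH3 gene in the interaction, 6 IAA, 0 ARF and 0 GH3 genes in watered roots, and 4 IAA and 2 ARF genes in stressed roots; SAUR39 lost its calls at −0.36 in IR20 and 0.77 in watered roots. In watered roots 9 ARF genes passed without the dimmest probe sets, 10 with a trended prior, 11 with a trended robust prior and 10 with array weights (main 5). In stressed roots 10 ARF genes passed with each of the first 3 (main 6), and 5 GH3 genes with either prior and 1 with only the arrays compared (main 3). Array weights gave 5 GH3 genes in the interaction. The fall of SAUR39 in IR20 (−0.36) also lost its call with only the arrays compared, either prior and array weights. Causes other than those named were not tested.

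The replicate numbers share no stated origin, and same-numbered arrays deviated together weakly (correlations of −0.01 to 0.21). With the number as a block, 151 of 155 followed gene values kept their call, 3 gained one and SAUR39 in IR20 (−0.36) lost it, and the family counts stayed within 1.5 times. Leaving out 1 array gave 13 to 17 IAA, 10 to 13 ARF and 6 to 7 GH3 genes in IR20, and 12 to 17, 7 to 11 and 5 to 6 in Nootripathu. It gave 8 to 15, 3 to 8 and 1 to 6 in the interaction, 7 to 19, 2 to 10 and 3 to 5 in watered roots, and 7 to 13, 5 to 8 and 1 to 5 in stressed roots. SAUR39 ranged from −0.49 to −0.24 in IR20, −2.39 to −2.22 in Nootripathu, −2.06 to −1.81 in the interaction, 0.65 to 0.90 in watered roots and at −1.16 in stressed roots. Counts moved by over 1.5 times were 7 ARF genes in Nootripathu without either Nootripathu control or Nootripathu stress replicate 2; in the interaction 3 ARF genes without IR20 control replicate 2 or any Nootripathu array, 1 GH3 gene without replicate 2 of any group but IR20 stress, and 6 GH3 genes without IR20 stress replicate 2; in watered roots 7 IAA genes without either control replicate 2, 8 without Nootripathu control replicate 1, 3 ARF genes without either control replicate 1, 2 without Nootripathu control replicate 2 and 10 without either stressed IR20 array; and in stressed roots 1 GH3 gene without either stressed Nootripathu array and 5 without IR20 stress replicate 2. Signals under the reporter level on some arrays limit IAA4, IAA7, IAA8, IAA12, IAA26, ARF13 and GH3.4, and on every array IAA14, IAA16, GH3.1 and GH3.11.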
